A study of Mus musculus with 77 samples.

Results

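Chromosome 3 of the mouse was described through its 80-kb bins, 1994 of the 32973 bins in the deposited replication profiles, in genome build mm9. Every bin assigned to the chromosome was taken, whatever its values, but the chromosome was chosen with earlier results of these data known. Of these bins, 1956 were called in at least 1 cell and 589 in every cell. No cell had a call in the outermost 37 bins of the centromeric end, or in the bin chr3:113120001-113200000 within the neighbourhood of the amylase genes. The data are single-cell Repli-seq profiles, in which the copy number of the DNA of 1 cell shows what that cell had already replicated. The cells were blastomeres, taken singly by micromanipulation from BDF1 embryos grown in vitro. The embryos came from somatic cell nuclear transfer (SCNT), which puts the nucleus of a body cell into an oocyte without its own. The 8-cell group held 49 cells of 12 embryos and the 4-cell group 28 cells of 14 embryos. Both groups were SCNT embryos, so every value below is of such embryos, and the type of donor cell was not stated in the labels. Cells of 1 embryo share their donor nucleus, so the embryo was the replicate. A batch code was annotated for each cell. Cells with the code that sorts first are called the earlier batch and all others the later batch. These names stand for the order of the codes only. The earlier batch held 4-cell cells but no 8-cell cell.

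The files hold calls and not reads, so the depth is unknown, and called bins are given in its place. Chromosome 3 had 1890 to 1956 called bins per 8-cell cell and 1214 to 1956 per 4-cell cell, with 2 of the 4-cell cells under 1800. The authors' replication score is the percent of called autosomal bins that were replicated. Cells under 30% were called early-S, cells between 30 and 70% mid-S, and cells over 70% late-S. Mid-S held 28 8-cell cells of 10 embryos and 18 4-cell cells of 9 embryos, of which 8 cells of 4 embryos came from the later batch. Early-S held 6 8-cell cells of 4 embryos and 1 4-cell cell. Late-S held 15 8-cell cells of 8 embryos and 9 4-cell cells of 5 embryos. In 4 of the late-S 8-cell cells and 5 of the late-S 4-cell cells, at least 98% of chromosome 3 was replicated. The chromosome is called in 1 state in these cells, and the single early-S 4-cell cell, with 1.49% replicated, is counted with them. Late-S values are given with and without these cells.

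In each S phase a chromosome is copied in a set order, in long stretches that are called replication domains. In differentiated mammalian cells, early domains are generally rich in genes and transcribed, while late domains are often poor in genes and lie at the nuclear lamina. Chromosome 3 carries both kinds, among them the epidermal differentiation complex, a cluster of genes of the skin barrier that stands within gene-rich DNA.

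The neighbourhoods of 3 genes mark the range of behaviours described below, and the 250 bases before their annotated starts are shown for that reason. They come from RefSeq (GRCm38.p6), 5′ to 3′ on the gene's strand, with CG dinucleotides in capitals. Lmna encodes lamins A and C of the nuclear envelope and lay in the most replicated neighbourhood of the listed genes in mid-S. Lor encodes loricrin of the cornified envelope and lay in the least replicated. Sox2 encodes a transcription factor of pluripotent cells and lay among bins that were low in mid-S and nearly all replicated in late-S 8-cell cells.
Lmna: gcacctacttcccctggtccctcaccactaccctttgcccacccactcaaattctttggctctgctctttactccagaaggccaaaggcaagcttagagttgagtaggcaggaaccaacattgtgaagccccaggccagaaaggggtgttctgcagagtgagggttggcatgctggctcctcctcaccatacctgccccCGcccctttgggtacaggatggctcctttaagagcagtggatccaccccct
Lor: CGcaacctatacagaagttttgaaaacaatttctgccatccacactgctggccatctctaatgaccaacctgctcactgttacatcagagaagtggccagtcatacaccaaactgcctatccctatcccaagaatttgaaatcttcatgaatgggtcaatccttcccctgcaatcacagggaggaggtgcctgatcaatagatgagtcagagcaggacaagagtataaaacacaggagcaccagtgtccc
Sox2: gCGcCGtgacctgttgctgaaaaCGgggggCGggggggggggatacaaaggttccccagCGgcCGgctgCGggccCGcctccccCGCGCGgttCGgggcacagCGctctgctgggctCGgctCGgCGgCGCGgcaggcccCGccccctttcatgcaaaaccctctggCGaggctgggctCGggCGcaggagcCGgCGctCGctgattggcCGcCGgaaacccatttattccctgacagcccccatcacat
The motif CG, which reads the same on both strands, occurred 1 time in the Lmna sequence, 1 time in the Lor sequence and 27 times in the Sox2 sequence. It was present in 92.2% of the 1346 promoters of chromosome 3 in that table, with a median of 5. Among the 42 listed genes with a sequence, the median number was 13 in the 6 genes of early neighbourhoods (range 1 to 34). It was 9 in the 7 genes of late neighbourhoods (range 1 to 22). It was 11 in the 18 genes of variable neighbourhoods and 13 in the 11 whose class differed between the stages. The median share of G and C bases ran the other way, at 55.2% in the early and 62.4% in the late genes. The first listed start of each gene was used, and a further listed start of Lmna had 4. The ranges of the classes overlapped.

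Chromosome 3 lagged behind the autosomes in mid-S 8-cell embryos. Because it was chosen with earlier results of these data known, the tests below are not independent support for this lag. Its replicated percent ran from 29.2% to 55.8% over the 10 8-cell embryos, with a median of 45.8%, and from 32.4% to 68.0% over the 9 4-cell embryos, with a median of 41.3%. The 8-cell embryos were at 49.7% over all autosomes, and the 4-cell embryos at 54.5%. Relative to the autosomes of the same cells, chromosome 3 stood at -6.67 ± 2.15 percentage points in 8-cell embryos (SD, n = 10), with a lowest value of -9.73, a median of -6.86 and a highest value of -3.59. All 10 8-cell embryos lay below 0 (two-sided exact sign-flip test over embryos, p = 0.00195, the smallest that 10 embryos allow). It stood at -8.61 ± 10.2 points in 4-cell embryos (SD, n = 9), from -26.1 to 11.5 with a median of -11.0, and 8 of the 9 lay below 0 (two-sided exact sign-flip test, p = 0.0391). The 4-cell call was lost when any single one of 4-cell embryos 1, 3, 7, 9, 10, 11, 13 or 14 was left out, with exact p-values of 0.0547 to 0.0781, and in the later batch alone, where the mean was -6.12 points (exact p = 0.625, n = 4).

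The stages did not pass a test of their difference in this measure. The 8-cell mean minus the 4-cell mean was 1.94 points (two-sided exact permutation test over 10 and 9 embryos, p = 0.574). Within the later batch it was -0.549 points (exact p = 0.810, 10 and 4 embryos), and without 4-cell embryo 1 it was -0.253 (exact permutation p = 0.945). Against the earlier-batch 4-cell embryos, which stood at -10.6 ± 4.43 points (SD, n = 5), the 8-cell embryos were 3.93 points higher (exact permutation p = 0.0353, 10 and 5 embryos). Those 2 sets of embryos come from different batches, so stage and batch cannot be told apart in that value. Chromosome 3 had rank 2 from the lowest among the 19 autosomes in mid-S 8-cell embryos, where chromosome 14 stood at -9.76 points, and lowest in mid-S 4-cell embryos, where chromosome 14 stood at -8.40.

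**Figure D1:**
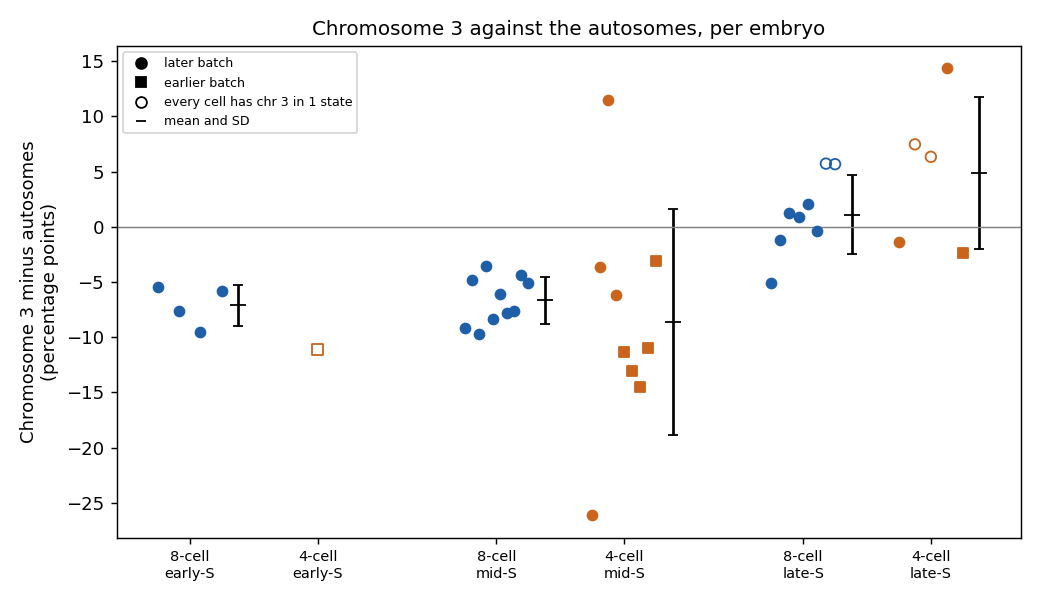
Replicated percent of chromosome 3 minus that of all autosomes of the same cells (vertical axis, percentage points), per embryo, for 8-cell embryos (blue) and 4-cell embryos (orange) in early-S, mid-S and late-S cells. Circles are later-batch and squares earlier-batch embryos, open symbols mark embryos in which every such cell had chromosome 3 in 1 state, and black marks are the mean and SD. All 10 mid-S 8-cell embryos lie between -9.73 and -3.59, while the 9 mid-S 4-cell embryos spread from -26.1 to 11.5.

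The lag was smaller in late-S than in mid-S cells of 8-cell embryos. In early-S 8-cell cells chromosome 3 was the lowest autosome, at -7.11 points (n = 4 embryos). A set of 6 8-cell embryos held both mid-S and late-S cells, and none of their late-S cells had chromosome 3 in 1 state. In those 6 embryos it stood at -0.414 ± 2.57 points in late-S cells and at -7.25 ± 2.47 in mid-S cells (SD, n = 6). The late-S value was higher in 6 of 6 embryos, by 6.83 ± 3.28 points and by 3.63 to 10.9 per embryo (two-sided exact sign-flip test, p = 0.0312, the smallest that 6 embryos allow). This test was added after the data had been seen, on a chromosome chosen with earlier results of these data known. A gap to the autosomes also has less room as cells near full replication. The p-value is therefore no independent support for the change. The same difference for chromosome 3 had rank 3 from the highest among 19 autosomes, with a median of -1.39 points over the others and 2.33 points for chromosome 14. Over all late-S cells chromosome 3 stood at 1.11 ± 3.57 points in 8-cell embryos (SD, n = 8; exact sign-flip p = 0.359) and 4.89 ± 6.90 points in 4-cell embryos (SD, n = 5; exact sign-flip p = 0.250, where 0.0625 is the smallest possible). These means include the cells with the whole chromosome replicated, in which 14 to 18 autosomes were at least 98% replicated.

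Along the chromosome, 157 windows of 1 Mb could be scored, each by the share of its called bins that were replicated. A window was called early where its mean over embryos in mid-S cells was at least 80%, and late at 20% or less. Windows in between were called variable, a name for an intermediate mean only. Cells that all copy a window midway through S phase give such a mean too, so the name does not show that cells differed in order. In 8-cell embryos 22 windows were early, 96 variable and 39 late, and in 4-cell embryos 22 were early, 99 variable and 36 late. Early windows made up 14.01% of chromosome 3 at both stages, against 24.2% of the 2386 autosomal windows in 8-cell embryos and 26.8% in 4-cell embryos. In the later batch alone, 33 windows were early and 24 late in 4-cell embryos. Late windows made up 24.8% of chromosome 3 in 8-cell embryos, against 24.1% of autosomal windows, and 22.9% in 4-cell embryos, against 16.6%. Both stages agreed on 16 early, 81 variable and 27 late windows, and no window was early at one stage and late at the other. With stricter limits of 90% and 10%, 13 early and 21 late windows were left in 8-cell embryos, and 8 early and 15 late windows in 4-cell embryos.

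**Figure D2:**
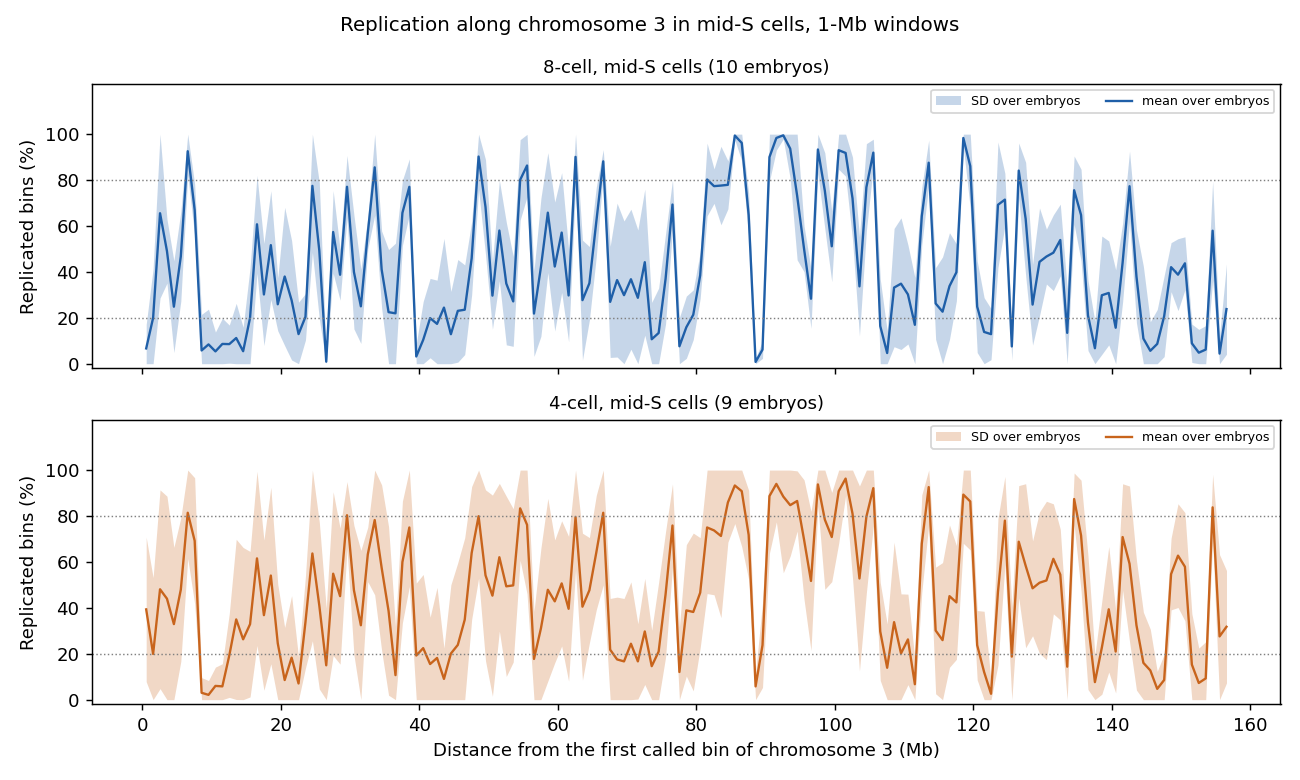
Percent of called bins replicated in mid-S cells (vertical axis) in 1-Mb windows of chromosome 3, against distance from the first called bin (horizontal axis, Mb), for 8-cell embryos (top, 10 embryos) and 4-cell embryos (bottom, 9 embryos). Lines are means over embryos, bands are SD, and dotted lines mark 20% and 80%; the central part holds the longest early stretches, broken by a narrow drop to 0.769% in 8-cell and 5.77% in 4-cell embryos.

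The longest early stretch lay near the centre of the chromosome, at chr3:93000001-97000000. It averaged 95.4 ± 5.61% in mid-S 8-cell embryos, from 83.8% to 100%, and 89.0 ± 22.4% in 4-cell embryos, from 30.8% to 100% (SD, n = 10 and 9). This stretch holds the Hist2 cluster of replication-dependent histone genes and Rbm8a, a core protein of the exon junction complex. The stretch chr3:88000001-90000000, with Lmna, averaged 97.8 ± 3.89% in 8-cell embryos and 92.0 ± 20.4% in 4-cell embryos. Another 2 stretches of 2 windows were early at both stages. Of these, chr3:103000001-105000000 averaged 92.4 ± 7.47% and 93.6 ± 11.4% in 8-cell and 4-cell embryos, and chr3:121000001-123000000 averaged 92.2 ± 9.22% and 87.8 ± 17.3%. Single windows starting at 9, 57, 69, 100, 108 and 116 Mb completed the set, with 8-cell means of 80.1% to 93.3% and 4-cell means of 81.4% to 93.8%.

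These stretches differed in how soon they were copied. In early-S 8-cell cells, the window at chr3:88000001-89000000 was 95.8 ± 8.33% replicated, the window at chr3:94000001-95000000 91.7 ± 11.8% and the window at chr3:95000001-96000000 90.4 ± 11.1% (SD, n = 4 embryos). The windows starting at 89, 116 and 93 Mb followed with 64.4%, 61.5% and 51.9%. No other window reached 50%. The early stretch at chr3:121000001-123000000, by contrast, was at 27.7 ± 24.04% in those cells and that at chr3:103000001-105000000 at 33.2 ± 24.5%. In the single early-S 4-cell cell the window at 88 Mb was 66.7% replicated and that at 116 Mb 41.7%, while those at 94 and 95 Mb were at 0%. At the other extreme 68 windows were at 0% in early-S 8-cell cells, and these included 26 of the 27 windows late at both stages.

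The longest late stretch lay near the centromeric end, at chr3:11000001-16000000. It averaged 7.34 ± 7.87% in 8-cell embryos, from 0 to 24.7%, and 7.22 ± 6.35% in 4-cell embryos, from 0 to 19.7% (SD, n = 10 and 9). The distal end held a pair of late stretches of 3 windows each. The stretch chr3:147000001-150000000 contains Adgrl2, the adhesion receptor latrophilin-2, and averaged 8.40 ± 18.9% in 8-cell embryos and 11.2 ± 10.8% in 4-cell embryos. The stretch chr3:154000001-157000000 contains Negr1, a neuronal adhesion protein, and averaged 6.62 ± 5.21% and 10.6 ± 12.9% in 8-cell and 4-cell embryos. The stretches chr3:44000001-46000000, with the protocadherin gene Pcdh10, and chr3:124000001-126000000 had 2 windows each, and 12 further late windows stood alone. In segments of 10 Mb, the lowest was chr3:10000001-20000000, with 20.01% in 8-cell and 25.1% in 4-cell embryos, and the highest chr3:100000001-110000000, with 69.4% and 76.4%. All 10 8-cell embryos were below their autosomal percent in the segments starting at 10, 20, 40, 140 and 150 Mb, and all 10 were above it in the segments starting at 80, 90 and 100 Mb.

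The 10 windows nearest 50% at both stages show what a variable window was. The window chr3:8000001-9000000 averaged 46.7% in 8-cell embryos, from 20.8% to 79.2%, and 47.9% in 4-cell embryos, from 8.33% to 100%. The others started at 6, 21, 30, 62, 63, 132, 133, 135 and 153 Mb, with 8-cell means of 42.3% to 57.4% and 4-cell means of 42.8% to 57.9%. Part of this spread follows the score, since the cells were at different points of S phase. A count less tied to this paired mid-S cells across embryos whose scores were at least 10 points apart, and asked how often the cell with the lower score had replicated a window, at 50% or more, that the other had not. There were 203 such 8-cell pairs and 70 such 4-cell pairs, of which at least 190 and 64 had calls in each window. The median window of chromosome 3 did so in 1.48% of 8-cell and 3.13% of 4-cell pairs with calls. Over all autosomal windows the medians were 1.48% and 4.29%, so chromosome 3 did not stand above them. The highest value was 10.3% in 8-cell pairs, at chr3:135000001-136000000, and 35.9% in the 64 4-cell pairs with calls, at chr3:45000001-46000000. The window at 45 Mb stood at 9.85% in 8-cell pairs, although it belongs to a late stretch. It averaged 17.4% in 8-cell and 18.2% in 4-cell embryos. The window at 30 Mb, variable by its mean, stood at 1.97% in 8-cell pairs and 0% in 4-cell pairs.

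**Figure D3:**
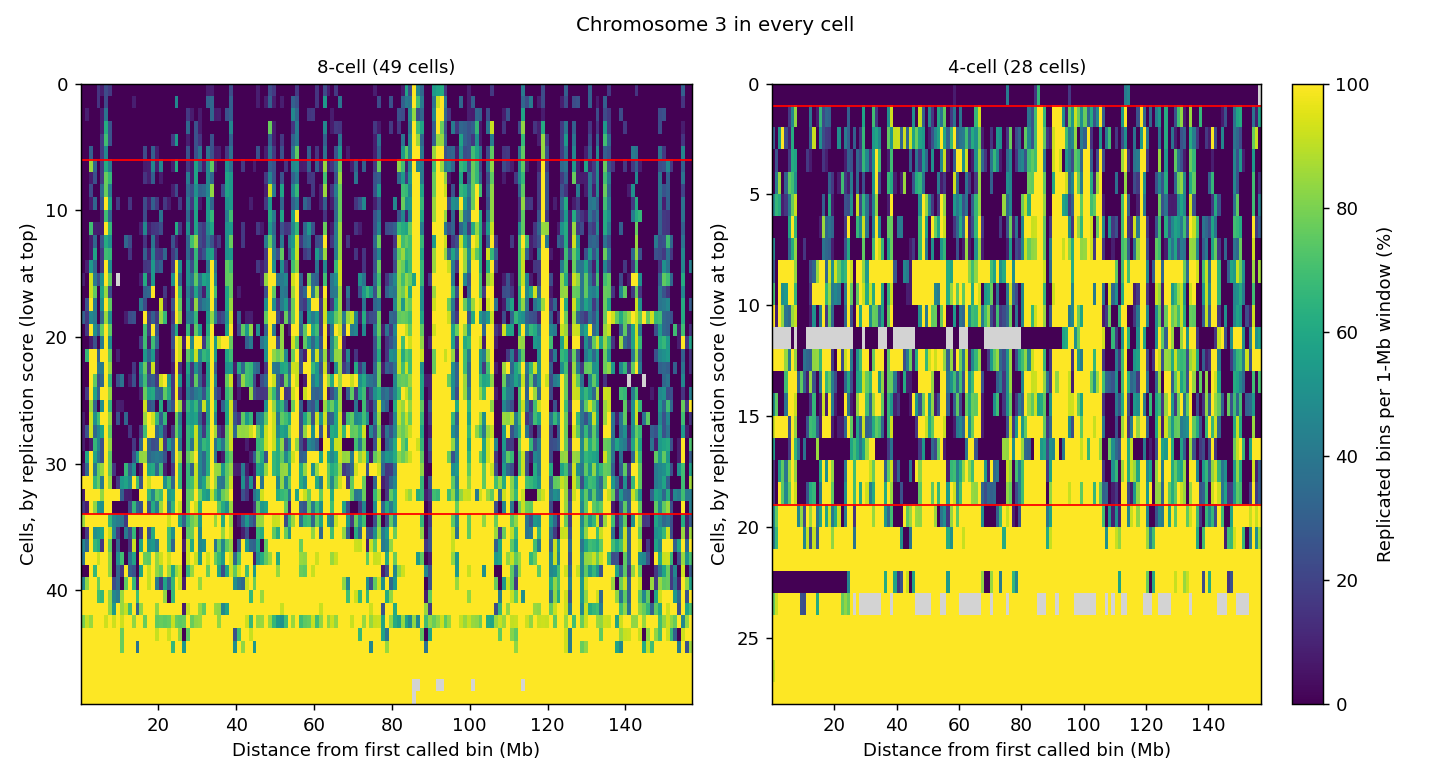
Every cell (rows, ordered by replication score with the lowest at the top) across the 1-Mb windows of chromosome 3 (horizontal axis, Mb from the first called bin), for 49 8-cell cells (left) and 28 4-cell cells (right). Colour is the percent of called bins replicated, grey marks windows with too few calls, and red lines mark scores of 30 and 70. Early stretches stand as columns that turn yellow in the earliest cells, and near the bottom are 4 8-cell and 5 4-cell cells with at least 98% of the chromosome replicated.

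A late pocket stood between the early stretches at 88 and 93 Mb. It covers Lor. In the RefSeq gene order 45 protein-coding genes stand between Lor and Flg, which lies just distal to the pocket, among them 21 Lce and 14 Sprr genes, which encode proteins of the cornified envelope. In mid-S 8-cell embryos the run of bins at or below 20% was chr3:90720001-92800000, which is 26 bins with a mean of 2.01%. It was bounded by early runs at chr3:87440001-90560000, with a mean of 97.1%, and chr3:93120001-96960000, with a mean of 96.5%. In mid-S 4-cell embryos the late run was chr3:91120001-92400000, which is 16 bins with a mean of 3.99%, between early runs of 91.9% and 88.9%. Both edges were graded in 8-cell embryos, with bins at 52.1% and 28.7% on the proximal side and at 20.1%, 46.5%, 64.9% and 72.4% on the distal side. The neighbourhoods at the edges of the pocket had intermediate values. That of S100a8, a calcium-binding protein of neutrophils, was at 64.7% in 8-cell and 71.8% in 4-cell embryos, and that of Flg, which encodes the filament-aggregating protein filaggrin, at 60.3% and 70.3%.

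**Figure D4:**
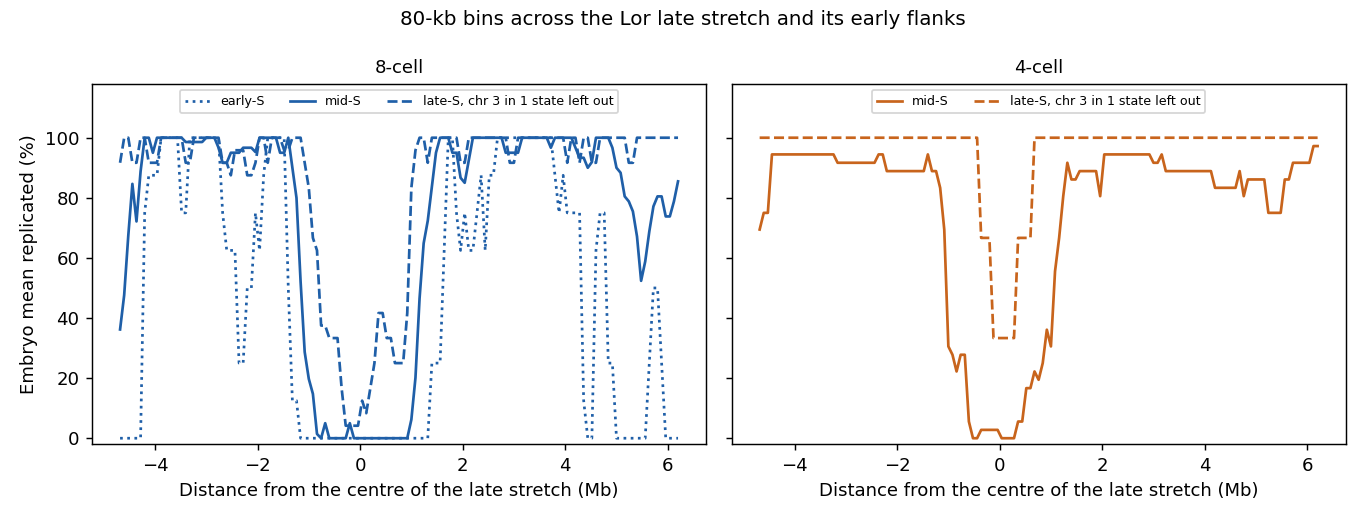
Mean over embryos of the percent of cells in which each 80-kb bin was replicated (vertical axis), against distance from the centre of the late run around Lor (horizontal axis, Mb), in 8-cell embryos (left) and 4-cell embryos (right). Dotted, solid and dashed lines are early-S, mid-S and late-S cells, the last without cells that had chromosome 3 in 1 state; the 8-cell mid-S line drops from over 80% to 0% within 1 Mb on each side.

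The pocket was also the least replicated window of late-S 8-cell cells. In the 6 8-cell embryos with late-S cells that had chromosome 3 in both states, the window chr3:91000001-92000000 was 81.1 ± 20.7% unreplicated (SD, n = 6), and its replicated percent ran from 0 to 38.5%. It was the only window at or above 80% unreplicated there, followed by those starting at 156, 147, 29 and 128 Mb with 76.0%, 72.4%, 71.8% and 61.1%. In all, 14 of 157 windows were at least 50% unreplicated in those cells, and 11 of these were late at both stages in mid-S. With every late-S 8-cell cell counted, the pocket window was 60.8% unreplicated, no window reached 80%, and 4 reached 50%. In the 3 4-cell embryos with such late-S cells the pocket window was 33.3% unreplicated, and the window chr3:124000001-125000000 was highest with 86.1%. One of these 4-cell cells, of embryo 2, had a single unreplicated run over chr3:3040001-27520000, and it enters these 4-cell values. In the 11 late-S 8-cell cells with both states the longest unreplicated run was between 0.72 and 3.60 Mb.

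The classes from mid-S cells were set against early-S and late-S cells. These cells had no part in defining the classes, but some of their embryos did. Replication adds up through S phase, so the direction of the difference was largely set in advance. The p-values below are therefore no independent support for the classes. In early-S cells the 16 windows early at both stages were 39.9 ± 23.1% replicated and the 27 late windows 0.0617 ± 0.138% (SD, n = 5 embryos of both stages). The difference was above 0 in 5 of 5 embryos, and the exact sign-flip p was 0.0625, the smallest that 5 embryos allow. In late-S cells with chromosome 3 in both states the early windows were 98.001 ± 3.27% replicated and the late windows 55.7 ± 20.3% (SD, n = 9 embryos), a difference of 42.3 points that was above 0 in 9 of 9 embryos (two-sided exact sign-flip test, p = 0.00391). Over all late-S cells the difference was 27.9 ± 27.04 points (SD, n = 13; exact sign-flip p = 0.00391), and 9 of the 13 embryos were above 0, while the other 4 held only cells with the chromosome in 1 state and were at 0. In the 5 embryos without a mid-S cell it was 15.5 points (exact sign-flip p = 0.5). Late windows differed in how far they had got: in late-S 8-cell cells with both states they ran from 18.9% to 78.2% replicated, with a median of 57.3%.

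In the neighbourhood of Sox2, bins that were low in mid-S 8-cell embryos were nearly all replicated in late-S. Bins at chr3:34240001-34480000 were between 2.86% and 6.19% replicated in mid-S 8-cell embryos, and those at chr3:34880001-35280000 between 1.43% and 7.86%. Between these low bins, close to the gene, the bin chr3:34640001-34720000 reached 55.5% in 8-cell embryos and 36.1% in 4-cell embryos. The neighbourhood as a whole, taken as the bins within 500 kb of the gene, was 25% ± 16.2 replicated in 8-cell embryos, from 4.17% to 50%, and 32.4 ± 32.6% in 4-cell embryos, from 0 to 95.8% (SD, n = 10 and 9). In late-S 8-cell cells with both states it was 96.9 ± 7.65% replicated, against 18.9 ± 22.2% for the neighbourhood of Lor (SD, n = 6 embryos each). The 2 late-S ranges in 8-cell embryos, 81.2% to 100% and 0 to 53.8%, did not overlap. Both genes were picked to mark the range of behaviours, so this gap is a description only. A strong rise was not particular to Sox2. Between mid-S and these late-S 8-cell cells, Fat4 rose from 20.8% to 89.9% and Pcdh18 from 25.3% to 85.8%. From like mid-S means, Fstl5 rose less, from 21.2% to 71.2%, as did Mecom, from 18.7% to 56.25%. The neighbourhood of Lor was also lower in mid-S, at 0.385% in 8-cell embryos. The low Sox2 bins named above were between 91.7% and 100% replicated in these late-S 8-cell cells. In late-S 4-cell cells with both states, Lor ran from 0 to 100% and Sox2 was at 100% (n = 3 embryos each).

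Genes were placed on the map by role, for 51 genes and clusters with positions to the nearest 100 kb, each scored by the bins within 500 kb. The median over all windows of chromosome 3 was 36.9% in 8-cell embryos and 45.1% in 4-cell embryos. The 9 housekeeping genes had a median of 80.4% in 8-cell and 86.1% in 4-cell embryos, with 5 early, 4 variable and 0 late in 8-cell embryos and 7 early, 2 variable and 0 late in 4-cell embryos. Lmna was highest, at 99.5 ± 1.74% in 8-cell and 93.8 ± 16.5% in 4-cell embryos. Ccna2, which encodes cyclin A2, stood at 85.5% and 78.2%, and Cenpe, a kinetochore motor, at 80.4% and 86.1%. Mbnl1, an RNA-splicing factor, was the lowest of the list with 38.4 ± 28.3% and 29.9 ± 34.01% in 8-cell and 4-cell embryos.

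The 12 genes of adhesion, synapse and other long genes stood at the other end. Their median was 18.8% in 8-cell and 17.6% in 4-cell embryos, with 7 and 8 late. Nlgn1, which encodes the synaptic adhesion protein neuroligin-1, was at 5.90 ± 6.49% in 8-cell and 5.34 ± 8.26% in 4-cell embryos. Adgrl2 was at 5.58 ± 12.8% and 10.3 ± 14.5%, Negr1 at 7.47 ± 11.5% and 16.2 ± 18.5%, and Gria2, a subunit of AMPA-type glutamate receptors, at 7.60 ± 12.5% and 12.04 ± 19.6% in 8-cell and 4-cell embryos. Ank2, which encodes the membrane adaptor ankyrin-B, was the exception at 90.2 ± 14.3% in 8-cell and 75.7 ± 26.2% in 4-cell embryos, although it lies within 1 Mb of the late stretch at chr3:124000001-126000000. Pcdh10 and Pcdh18 are separated by 1 protein-coding gene in the RefSeq order, and had 10.47% and 25.3% in 8-cell embryos and 16.7% and 34.7% in 4-cell embryos.

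**Figure D5:**
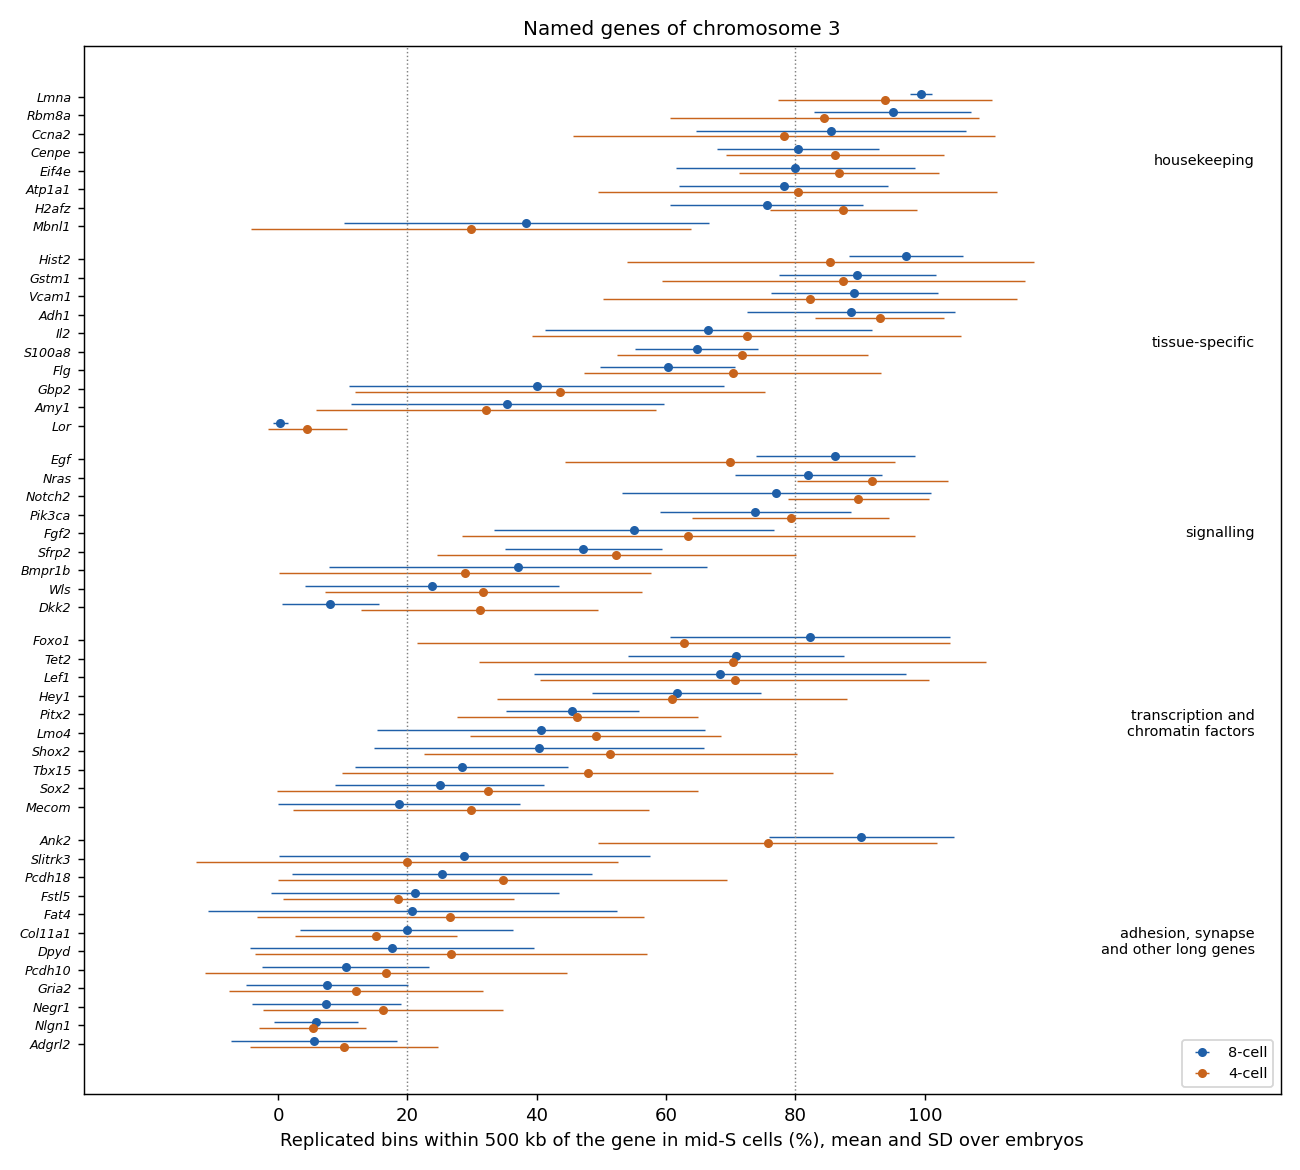
Percent of called bins replicated within 500 kb of each of 49 genes and clusters in mid-S cells (horizontal axis), as mean and SD over embryos, for 8-cell embryos (blue) and 4-cell embryos (orange), grouped by role. Dotted lines mark 20% and 80%. Housekeeping genes lie mostly at the right, from 75.6% to 99.5% in 8-cell embryos except Mbnl1 at 38.4%, and adhesion, synapse and other long genes at the left, except Ank2 at 90.2%.

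Signalling genes and transcription factors spread between these lists. The 10 signalling genes had a median of 51.1% in 8-cell and 63.4% in 4-cell embryos. Nras, a small GTPase of the Ras family, was at 82.0 ± 11.4% in 8-cell and 91.9 ± 11.6% in 4-cell embryos, and the Notch receptor gene Notch2 at 77.0% and 89.7%. The ligand genes were apart from each other, with Egf at 86.1% and 69.9% and Fgf2 at 55.05% and 63.4% in 8-cell and 4-cell embryos. Dkk2, a secreted modulator of Wnt signalling, was lowest in 8-cell embryos, at 8.11 ± 7.55% against 31.2 ± 18.3% in 4-cell embryos. The 10 genes of transcription and chromatin factors had medians of 43.1% and 50.3%, from 18.7% for Mecom to 82.3% for Foxo1 in 8-cell embryos. Tet2, an enzyme that oxidises methylated cytosine, was at 70.8% in 8-cell and 70.3% in 4-cell embryos.

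The list of tissue-specific genes and clusters had the widest range in 8-cell embryos. It also held the Hist2 cluster, whose replication-dependent histone genes are not tissue-specific. The 10 entries of the list had a median of 65.6% in 8-cell and 72.1% in 4-cell embryos. In 8-cell embryos they ran from 0.385% for Lor to 97.1% for the Hist2 cluster, with Gstm1 next highest at 89.6%. Vcam1, an adhesion molecule of endothelial cells, was at 89.1% in 8-cell and 82.3% in 4-cell embryos, and Adh1, a liver alcohol dehydrogenase, at 88.6% and 93.1%. The density of genes varied with the mid-S percent. Over the 29 intervals of at least 2 Mb between neighbouring listed genes, which leave out those on both sides of Lor, the number of protein-coding genes per Mb and the mid-S percent had a Spearman correlation of 0.733 in 8-cell and 0.782 in 4-cell embryos. This is a description across neighbouring regions of 1 chromosome, which are not independent. The interval from Lor to Flg, shorter than 2 Mb, holds 45 protein-coding genes and takes in part of the late pocket. The correlation therefore does not cover this gene-rich late DNA.

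No window of chromosome 3 passed the test of a difference between the stages. Embryo means of mid-S cells were fitted with limma over 2537 windows of the genome, with the embryo's autosomal percent as a term, and 0 of 157 windows of chromosome 3 had an adjusted p under 0.05, against 0.709% of all windows. At an unadjusted p under 0.05 there were 18 of 157, or 11.5%, against 15.7% of all windows. The smallest p belonged to chr3:126000001-127000000, which was at 69.2 ± 27.3% in 8-cell embryos, with a median of 69.3% and a range of 16.7% to 100%, and at 46.99 ± 31.9% in 4-cell embryos, with a median of 37.5% and a range of 0 to 95.8% (SD, n = 10 and 9). Its stage effect in the fit was 34.3 points with a standard error of 9.69 (limma adjusted p = 0.118). It was 38.3 points with a limma adjusted p of 0.0487 when cells with a run of 1 state of 30 Mb or more on any autosome were left out, and 39.4 points with an adjusted p of 0.0305 without 4-cell embryo 6. It was 20.7 points with a limma adjusted p of 0.492 in the later batch alone, and 22.2 points with an adjusted p of 0.411 without the autosomal percent in the fit.

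Other windows with small p-values are given as values. The window chr3:23000001-24000000 was at 37.99 ± 30.1% in 8-cell embryos and 8.55 ± 22.9% in 4-cell embryos. The window chr3:3000001-4000000, next to the uncalled centromeric bins, was at 6.66 ± 10.4% in 8-cell and 39.3 ± 31.5% in 4-cell embryos, and its limma adjusted p was 0.185. In windows of 400 kb, 1 of 392 on chromosome 3 passed. It was chr3:2800001-3200000, with 12.7 ± 17.3% in 8-cell embryos (n = 10) and 71.9 ± 31.8% in 4-cell embryos (n = 8), and a limma adjusted p of 0.0345. The first called bin of the chromosome starts at 2960001, so this call rests on few bins at the edge of the uncalled DNA. A cell needed at least 3 called bins in such a window. The window chr3:157000001-158000000, at the distal end of the Negr1 stretch, was at 57.9 ± 21.6% in 8-cell and 83.8 ± 14.4% in 4-cell embryos (limma adjusted p = 0.227), and passed only without cells with a run on any autosome, with a limma adjusted p of 0.0464. The windows at 129, 145 and 150 Mb had fitted differences of 20.4, 25.1 and 15.97 points, and those at 92, 144 and 152 Mb of -13.1, -22.6 and -15.8 points, with limma adjusted p-values of 0.231 to 0.267.

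Profiles of chromosome 3 were divided into more runs in 8-cell than in 4-cell embryos. Along called bins, the state changed 73.2 ± 10.9 times per 1000 bins in mid-S 8-cell embryos, from 54.7 to 88.9 with a median of 77.0, and 54.8 ± 11.5 times in 4-cell embryos, from 36.2 to 73.1 with a median of 57.3 (SD, n = 10 and 9). The difference of 18.4 changes passed the two-sided exact permutation test over 10 and 9 embryos (p = 0.00279), and the ranges overlapped. Within the later batch it was 23.8 (exact permutation p = 0.00599, 10 and 4 embryos). The longest run of 1 state on chromosome 3 in a mid-S cell had a median of 8.20 Mb in 8-cell and 8.48 Mb in 4-cell cells. The authors' noise score had a median of 0.615 in mid-S cells of each stage. It ran from 0.497 to 0.718 in 8-cell and from 0.523 to 0.805 in 4-cell cells.

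Cells of different embryos also agreed more on chromosome 3 in 8-cell embryos. The phi coefficient, a correlation between the binary states of a pair of mid-S cells, averaged 0.518 over 340 pairs of 8-cell cells and 0.368 over 141 pairs of 4-cell cells. Pairs within an embryo averaged 0.577 in 8-cell embryos (38 pairs) and 0.470 in 4-cell embryos (12 pairs). The difference of 0.150 between embryos of each stage passed the two-sided exact permutation test over 10 and 9 embryos (p = 0.0225). It did not pass for scores of 40 to 60 (0.187, exact p = 0.0513), within the later batch (0.216, exact p = 0.0589), without 8-cell embryo 11 (0.144, exact p = 0.0506), or without the 11 8-cell and 6 4-cell cells that had a run of 30 Mb or more on any autosome (0.0593, exact p = 0.245). Leaving out those cells also removed 2 8-cell embryos and 3 4-cell embryos, embryo 1 among them, and without 4-cell embryo 1 alone the difference was 0.0864 (exact permutation p = 0.0490). Mean phi with cells of other embryos ran from 0.470 to 0.542 over the 8-cell embryos and from 0.153, in embryo 1, to 0.483 over the 4-cell embryos.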

How the data were processed

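Blastomeres were isolated singly and their amplified DNA was sequenced, per the labels' protocols. The deposited binary states (1, -1 or 0 per 80-kb bin, a coded value with no unit) rest on mm9 according to the submitters' processing notes. The aligner and the way states were called are not given in the sources. State 1 was read as replicated, because the percent of called autosomal bins at 1 equals the deposited replication score, a percent, within 4.98e-09. The noise score, a score of the authors named in the file headers, was used as deposited. Columns of no sample numbered 0.

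Windows of 1 Mb needed at least 6 called bins per cell. Cell values were averaged per embryo, and embryos were tested by exact sign-flip or exact permutation tests in Python 3.11.15 (numpy 2.4.6, pandas 2.3.3), and windows by limma 3.58.1 in R 4.3.3 with Benjamini-Hochberg adjustment. On simulated data with 2537 windows, the stage fit called 14% of windows changed by 20 points, 84% of those changed by 40 points and 1 unchanged window. These rates belong to the simulated windows only. In the real windows the spread between embryos varied widely, and some windows stood near no or full replication. Whether the rates hold there was not tested, so they do not give the power or the false calls of the real fit. P-values measure the spread between embryos.

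Regions named are runs of windows of 1 class at both stages, the 10 windows nearest 50% at both stages, windows at least 80% unreplicated in late-S and the 5 smallest p-values in each direction. Chromosome 3, its gene lists and these rules were chosen with earlier results of these data known. Gene positions on mm9 were entered to the nearest 100 kb from general knowledge. All 51 stood in the order of the RefSeq table of GRCm38.p6, whose coordinates are not used here. The values of 2 of the genes are not reported here one by one. Alternatives were other score ranges, thresholds, window sizes, the later batch alone, cells without long runs and leaving out each embryo.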

Additional observations from a re-analysis of the deposited data

Results flagged for a closer look

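Both results below stand out because the stages differed by a test of the difference itself. Both measures were taken on chromosome 3 alone, and whether other chromosomes differ in the same way was not tested. The number of state changes per 1000 called bins of chromosome 3 in mid-S cells was higher by 18.4 in 8-cell than in 4-cell embryos (two-sided exact permutation test over 10 and 9 embryos, p = 0.00279). The mean phi between cells of different embryos was higher by 0.150 in 8-cell than in 4-cell embryos (same test, exact p = 0.0225). Among the 10 8-cell embryos 73.2 and among the 9 4-cell embryos 54.8 changes were counted on average, and the 5 earlier-batch 4-cell embryos had 59.1 and the 4 later-batch ones 49.4. Against the earlier-batch 4-cell embryos the differences were 14.04 changes (exact permutation p = 0.0266) and 0.0702 in phi (exact permutation p = 0.187). Mid-S cells with a run of 1 state of 30 Mb or more all belonged to the later batch, the only batch with 8-cell cells. Leaving them out gave 0.0593 in phi over 8 and 6 embryos, and the part of the runs and that of the lost embryos cannot be told apart. Dixon's test at the 95% level flagged no embryo in these measures or in chromosome 3 minus the autosomes. The test sets a gap against the whole range, so embryos far out at both ends can hide each other. It therefore does not show that no embryo was outlying. In chromosome 3 minus the autosomes, 4-cell embryo 1 was at -26.1 and 4-cell embryo 6 at 11.5 points. The other 7 4-cell embryos lay between -14.5 and -3.09.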

How the results depend on the processing

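No paired analysis was possible because replicate numbers follow accession order and pair no samples between the stages. Mid-S chromosome 3 minus autosomes in 8-cell embryos kept its call under all 13 alternatives (-7.01 to -6.33 without each embryo). In 4-cell embryos it was -9.28 for scores of 40 to 60 (exact p = 0.219), -6.12 in the later batch alone (exact p = 0.625) and -11.1 to -6.41 without each embryo. Its stage difference reversed to -0.549 in the later batch alone and to -0.253 without 4-cell embryo 1, within -0.253 to 4.45 without each embryo. The agreement difference was 0.187 for scores of 40 to 60, 0.216 in the later batch, 0.0593 without cells with a run on any autosome, an alternative chosen after seeing the data, and 0.0864 to 0.169 without each embryo. The difference in state changes kept its call in 23 of 23 alternatives, at 16.1 to 23.8. Late-S chromosome 3 minus autosomes in 8-cell embryos reversed to -2.32 for scores of 70 to 85, -1.14 without cells with a run on any autosome and -0.414 without cells with chromosome 3 in 1 state (also chosen after seeing the data). With limits of 90% and 10%, early windows numbered 13 in 8-cell and 8 in 4-cell embryos, and late windows 21 and 15. The late-S class difference was 15.5 in embryos without a mid-S cell. The windows called between the stages numbered 1 at 400 kb, 2 without cells with a run on any autosome, and 0 to 1 without each embryo. A run was measured along called bins, so in the 4-cell cell with few calls it can span bins without a call.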

Other observations

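Within the 8-cell embryos, chromosome 3 minus the autosomes was -7.57 ± 3.16 points in mid-S cells with scores of 30 to 50 and -4.81 ± 2.17 in those with scores of 50 to 70 (SD, n = 8 and 7 embryos, which in part are the same embryos). In 4-cell embryos it was -8.01 ± 4.43 points at scores of 30 to 50 and -9.86 ± 11.2 at scores of 50 to 70 (SD, n = 3 and 8 embryos). In late-S, 1 8-cell cell of embryo 3 changed state 134.6 times per 1000 called bins of chromosome 3, while the other 14 late-S 8-cell cells had 0 to 76.2, and its noise score of 0.375 lay within their range of 0.264 to 0.491.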
